A study of Mus musculus with 12 samples.

Results

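Receptors for chemokines and other chemoattractants were followed in mouse bone marrow neutrophils and macrophages exposed to the sensory neuropeptide CGRP. The receptor genes were chosen by name, as Ccr1, Ccr2, Ccrl2, Cx3cr1, Cxcr2, Cxcr4, C5ar1, Fpr1 and Fpr2, and all 9 were found among the 52636 genes of both count tables. The study compared cells given 1 nM CGRP for 4 h with cells given PBS (saline control) for the same time, to learn through which genes CGRP acts on neutrophils and macrophages. Neutrophils were treated in RPMI directly after isolation, in 3 PBS and 3 CGRP libraries. Monocytes were first cultured for 3 days in DMEM/F12 with 10 ng/ml M-CSF, the growth factor that turns them into macrophages, and then gave 3 PBS and 3 CGRP libraries that the labels call monocytes/macrophages. Both cell types came from the bone marrow of young adult C57BL/6 J mice without a genetic change, and were taken out of the marrow with cell enrichment or isolation kits rather than by sorting on a cytometer. Whether the 3 libraries of a group came from separate mice is not given in the sources used here, and p-values may therefore measure technical spread.

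Chemokine receptors are G protein-coupled receptors that guide leukocytes along gradients of small secreted proteins, and most act through Gi proteins. CCR2 brings monocytes out of the bone marrow, CXCR4 retains neutrophils and their precursors there, and CXCR2 draws mature neutrophils towards the blood and inflamed tissue. C5a and formyl peptide receptors sense complement fragments and bacterial or mitochondrial peptides close to the site of damage. CGRP acts through CALCRL and RAMP1, a receptor that couples mainly to Gs and raises cyclic AMP.

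The neutrophil libraries held 2196558 to 3631989 counts, and the macrophage libraries 2002559 to 3477069. A count of 3, taken as the floor of detection, corresponded to 0.826 to 1.5 CPM (counts scaled to the size of the library) in the 12 libraries before any further scaling, counting error only. The libraries were primed at the poly(A) tail, so CPM values, which are not per length, are compared here between libraries, and the leading gene of a marker list is the one with the most counts, whatever its length. Except where all 12 libraries are set side by side, CPM values were scaled within a cell type by the trimmed mean of M values (TMM). The labels of the cells were checked on fixed marker genes. The 10 neutrophil markers summed to 190239 ± 35388 CPM in PBS neutrophils and 347 ± 46.8 CPM in PBS macrophages (SD, n = 3 each), and S100a8 had the most counts in both. The 10 monocyte and macrophage markers summed to 5783 ± 323 CPM in PBS macrophages, led by Cd68, and to 4101 ± 333 CPM in PBS neutrophils, led by the monocyte gene Ly6c2 at 2660 CPM. Ly6c2 stood at 31.7 CPM in PBS macrophages, opposite to the list as a whole, and without it the other 9 markers summed to 1441 ± 35.3 CPM in PBS neutrophils. Of these 9, F13a1 and Ms4a4c were also lower in PBS macrophages, at 53.6% and 19.1% of their level in PBS neutrophils. The neutrophil libraries thus also held counts of monocyte markers, and these are set beside Ccr2 and Cx3cr1 where those genes are described.

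CGRP was followed by lower Ccr2 in both cell types, by lower Cx3cr1 and higher Cxcr4 and Ccrl2 in macrophages, and by higher Ccr1 in neutrophils. The calls of Ccr2, Cx3cr1 and Cxcr4 held in all 6 fits without 1 library, that of Ccrl2 in 2 of 6 and that of Ccr1, whose groups overlapped, in 1 of 6. In neutrophils all 9 receptor genes had enough counts to test and 2 passed an adjusted p under 0.05 (limma-voom, Benjamini-Hochberg over all genes tested), Ccr1 upward and Ccr2 downward. Over all 9819 genes tested in neutrophils, 248 (2.53%) passed, of which 148 (1.51%) were higher and 100 (1.02%) lower with CGRP. In macrophages 7 of the 9 had enough counts and 4 of these passed, Cxcr4 and Ccrl2 upward and Ccr2 and Cx3cr1 downward. Over all 9393 genes tested in macrophages, 698 (7.43%) passed, of which 325 (3.46%) were higher and 373 (3.97%) lower. The median log2 fold change of the receptor genes tested was 0.12 in neutrophils and 0.28 in macrophages, beside 0.0008 and 0.0047 over all genes tested. The plot of fold changes shows the receptor genes side by side in the 2 cell types.

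**Figure D1:**
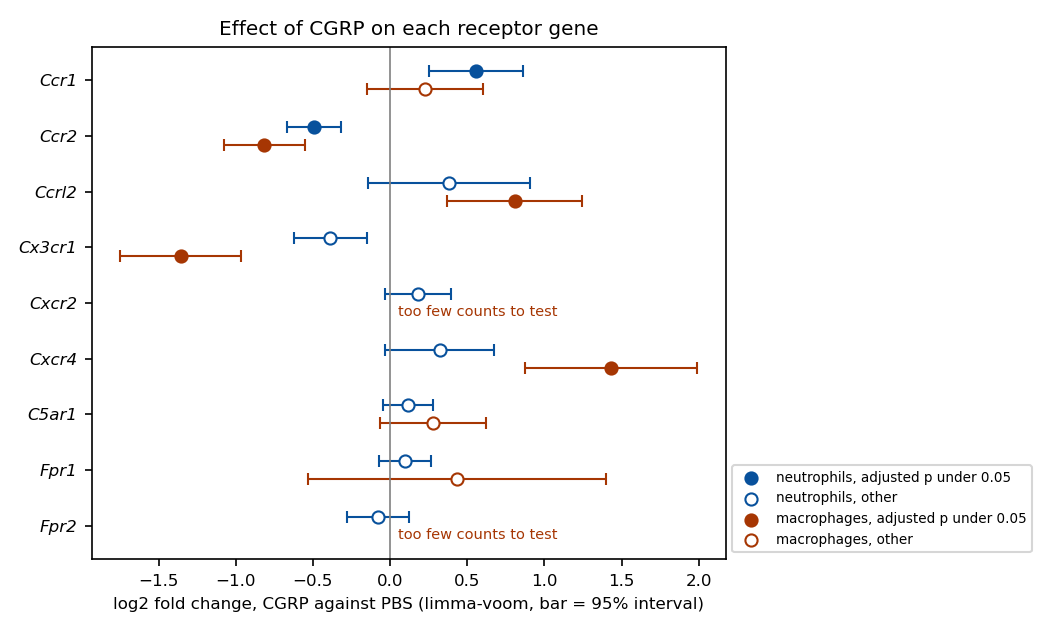
The log2 fold change of each receptor gene with CGRP against PBS is plotted on the x axis, with its 95% interval (limma-voom, 3 libraries a group), for neutrophils in blue and macrophages in brown, and filled points mark an adjusted p under 0.05. Ccr2 lies left of 0 with a filled point in both cell types, whereas Cx3cr1 reaches -1.36 in macrophages and Cxcr4 reaches 1.43.

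The start regions of the 4 receptor genes that passed in macrophages are shown because CGRP signals through cyclic AMP, and the DNA element best known from that pathway is a short fixed motif that can be searched for in them. The sequences are the 250 bases before the RefSeq start on GRCm38.p6, 5′ to 3′ on the gene's own strand, at chr9:124101933-124102182 (plus strand) for Ccr2, chr9:120068297-120068546 (minus strand) for Cx3cr1, chr1:128592300-128592549 (minus strand) for Cxcr4 and chr9:111057519-111057768 (minus strand) for the most upstream of the 3 starts of Ccrl2. The GENCODE spans given below for Ccr2 and Cx3cr1 begin upstream of these RefSeq starts, so nearly all of the bases printed for Ccr2 and all of those for Cx3cr1 lie inside the spans, and the GENCODE starts were not searched. Capitals mark TATAAA or its reverse complement TTTATA, which overlap in Cxcr4.
Ccr2: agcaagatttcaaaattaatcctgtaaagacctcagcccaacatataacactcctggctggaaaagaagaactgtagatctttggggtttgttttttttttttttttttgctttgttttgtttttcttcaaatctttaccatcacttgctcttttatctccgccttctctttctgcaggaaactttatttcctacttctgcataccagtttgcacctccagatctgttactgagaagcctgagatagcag
Cx3cr1: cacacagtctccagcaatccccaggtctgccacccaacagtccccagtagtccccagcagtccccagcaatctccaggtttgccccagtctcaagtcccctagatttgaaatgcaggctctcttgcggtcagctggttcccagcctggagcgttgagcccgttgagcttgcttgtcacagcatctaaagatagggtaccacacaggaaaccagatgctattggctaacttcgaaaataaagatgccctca
Cxcr4: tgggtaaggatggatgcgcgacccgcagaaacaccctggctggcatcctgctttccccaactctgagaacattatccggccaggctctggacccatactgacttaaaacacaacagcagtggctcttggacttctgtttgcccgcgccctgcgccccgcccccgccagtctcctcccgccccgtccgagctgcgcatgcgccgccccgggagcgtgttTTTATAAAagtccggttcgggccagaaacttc
Ccrl2: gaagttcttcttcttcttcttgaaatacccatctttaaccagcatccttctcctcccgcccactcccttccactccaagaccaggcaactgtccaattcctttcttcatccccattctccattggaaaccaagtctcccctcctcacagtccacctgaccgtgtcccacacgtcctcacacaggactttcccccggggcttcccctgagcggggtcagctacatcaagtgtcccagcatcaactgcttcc
All 9 receptor genes had an entry, with 11 windows in all because Ccrl2 has 3 starts, and each window searched ran 250 bases before to 50 after the start. The cyclic AMP response element TGACGTCA, which reads the same on both strands, was in none of the 11 windows and in 1.79% of the 32851 windows of all genes. Its first 5 bases TGACG (or CGTCA on the other strand), which lies inside the full element, was in the 3 windows of Ccrl2, at the same genomic place, and in 20.8% of all windows. In the window of the most upstream start it begins 30 bases after the start, outside the bases printed. TATAAA, searched on both strands, was in the windows of Cxcr4, Fpr1 and Fpr2 and in 13.6% of all windows, and in Cxcr4 it begins 30 bases before the start. These matches are letters in a window and were not tested as binding sites.

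Ccr2 encodes the receptor for CCL2 and CCL7 (ENSMUSG00000049103, chromosome 9, 124101950 to 124113557, plus strand, GRCm38). It stood at 323, 300 and 313 CPM in the PBS neutrophils and at 238, 218 and 209 CPM in the CGRP neutrophils. In macrophages it stood at 293, 293 and 279 CPM with PBS and at 157, 165 and 171 CPM with CGRP. In both cell types every CGRP library lay below every PBS library. Ccr2 fell by 0.49 on the log2 scale in neutrophils (SE 0.084, adjusted p = 0.0013) and by 0.81 in macrophages (SE 0.12, adjusted p = 4.8e-04). Non-overlapping groups were found in 17.8% of all genes tested in neutrophils and 24.1% in macrophages. Both calls held under all 9 other processing settings and without any one of the 6 libraries. The fall was 0.31 larger on the log2 scale in macrophages (SE 0.14), and this difference did not pass (adjusted p = 0.34), with a 95% interval of -0.61 to -0.02 for the macrophage effect minus the neutrophil effect.

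Cx3cr1 encodes the fractalkine receptor of monocytes and tissue macrophages (ENSMUSG00000052336, chromosome 9, 119901616 to 120069879, minus strand). In macrophages it stood at 64.3, 57.6 and 73.1 CPM with PBS and at 28.6, 22.9 and 23.4 CPM with CGRP. The highest CGRP macrophage library was below the lowest PBS library by a wide margin. Cx3cr1 fell by 1.36 on the log2 scale in macrophages (SE 0.18, adjusted p = 1.43e-04), to 0.390 of its PBS level, and this call held under all 9 other settings and all 6 fits without 1 library. In neutrophils it stood at 81.0, 84.5 and 98.7 CPM with PBS and at 67.8, 62.2 and 72.0 CPM with CGRP. These groups did not overlap either, but the log2 difference of -0.39 (SE 0.11) did not pass (adjusted p = 0.084).

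The effect of CGRP on Cx3cr1 differed between the cell types. The macrophage log2 fold change minus the neutrophil one was -0.96 (SE 0.21, adjusted p = 0.011), and Cx3cr1 was the only receptor gene of the 9 to pass this test with limma-voom. Over all 10694 genes in that fit 252 (2.36%) passed, 129 (1.21%) with the higher and 123 (1.15%) with the lower effect in macrophages. The call held under all 8 other settings and in 11 of 12 fits without 1 library, and was lost without the second CGRP macrophage library (log2 difference -0.89, adjusted p = 0.060). The Cx3cr1 gene spans other annotated genes, among them Wdr48 on the opposite strand (at most 143 counts in a library) and Gorasp1 and Csrnp1 on its own (at most 46 and 79 counts), and the strand setting of the counting is not given in the sources used here. In the last 500 bases of its transcripts 12.1% of 31-base words also occur in other genes, of which the one sharing most, Gm43766, had at most 2 counts.

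Ccr2 and Cx3cr1 are typical of monocytes, so their values in the neutrophil libraries were set beside the 10 monocyte and macrophage markers. The markers summed to 4131, 4418 and 3754 CPM in the PBS neutrophils and to 3932, 3373 and 3177 CPM in the CGRP neutrophils, so these groups overlapped. Without Ly6c2 the other 9 summed to 1451, 1402 and 1470 CPM with PBS and to 1295, 1206 and 1268 CPM with CGRP, and these groups, like those of Ccr2 and Cx3cr1, did not overlap. Taken as a percentage of the PBS mean, the CGRP neutrophils held 85.2% of the 10 markers (range over libraries 77.5 to 95.9%), 87.2% of the 9 markers without Ly6c2 (83.7 to 89.9%), 71.1% of Ccr2 (67.1 to 76.2%) and 76.5% of Cx3cr1 (70.7 to 81.7%). Of the 10 markers, 8 had a lower and 2 a higher fitted level with CGRP, beside 4891 lower and 4928 higher of all 9819 genes. Of the 10, 1 passed, Irf8, a transcription factor of the monocyte lineage named here after its values were seen. Irf8 stood at 137, 110 and 146 CPM in PBS neutrophils and at 71.0, 70.4 and 79.0 CPM in CGRP neutrophils (log2 -0.83, adjusted p = 1.83e-04). At an unadjusted p under 0.05 limma-voom, edgeR and DESeq2 gave 5, 4 and 5 of the 10, beside 1257 of all 9819 genes with limma-voom. For the difference in the effect of CGRP between cell types 1 of the 10 markers passed, Ms4a6c, also named after its values were seen (macrophage minus neutrophil log2 fold change 0.66, adjusted p = 0.018). This call held in 7 of 12 fits without 1 library and was lost without PBS macrophage library 1, CGRP neutrophil library 2 or any PBS neutrophil library (adjusted p up to 0.095), and edgeR and DESeq2 each called 2 of the 10. The macrophage effect was the higher one for 9 of the 10 (median difference 0.59, beside 0.02 over all genes), and for 5569 of all 10694 genes. With each tool 7 of the 10 had an unadjusted p under 0.05, beside 1416 of the 10694 genes with limma-voom. The difference for Cx3cr1 was -0.96. In bulk libraries fewer cells of a type and less RNA per cell cannot be told apart, and the part of monocytes in the fall of Ccr2 in neutrophils was not tested. In the macrophage libraries the same markers summed to 5750, 5478 and 6121 CPM with PBS and to 5933, 6554 and 6886 CPM with CGRP, while Ccr2 and Cx3cr1 were lower.

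**Figure D2:**
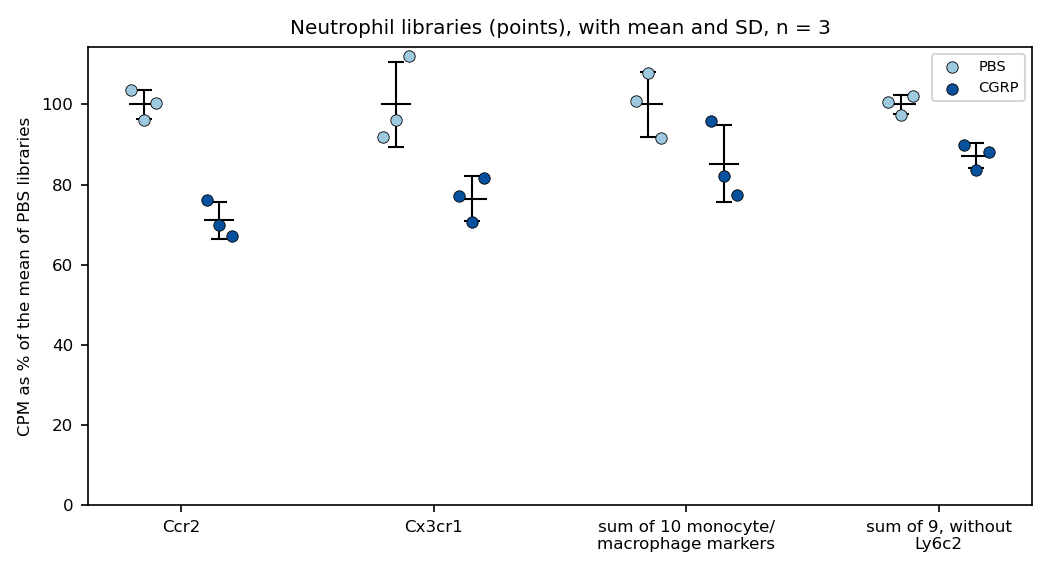
Levels in the 6 neutrophil libraries are plotted as a percentage of the mean of the PBS libraries (y axis) for Ccr2, Cx3cr1 and the summed monocyte and macrophage markers with and without Ly6c2, with points for libraries and bars for the mean and SD (n = 3). CGRP libraries average 71.1% for Ccr2 and 76.5% for Cx3cr1, and 85.2% and 87.2% for the marker sums.

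Cxcr4 encodes the receptor for CXCL12, the signal that holds haematopoietic cells in the marrow (ENSMUSG00000045382, chromosome 1, 128588199 to 128592293, minus strand). In macrophages it stood at 9.32, 10.0 and 11.0 CPM with PBS and at 23.7, 23.2 and 40.1 CPM with CGRP. Every CGRP library was above every PBS library, and the third CGRP library was above the other two. Cxcr4 rose 2.70-fold (log2 1.43, SE 0.26, adjusted p = 0.0024), and the call held under all 9 settings and all 6 fits without 1 library. Behind these values lie 30 to 33 counts per PBS library and 62 to 79 per CGRP library. In neutrophils Cxcr4 stood at 41.1, 42.0 and 62.7 CPM with PBS and at 48.4, 57.5 and 78.1 CPM with CGRP. The neutrophil groups overlapped and the log2 difference of 0.32 (95% interval -0.03 to 0.67) did not pass (adjusted p = 0.45). The macrophage effect minus the neutrophil effect was 1.11 (SE 0.34) and did not pass (adjusted p = 0.099), although it passed under 4 of 8 other settings, among them edgeR (adjusted p = 0.049) and DESeq2 (adjusted p = 0.035). This difference passed in 0 of 12 limma-voom fits without 1 library (adjusted p from 0.057 to 0.294).

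Ccrl2 encodes a chemokine receptor-like protein that binds chemerin without signalling itself and presents it to other cells (ENSMUSG00000043953, chromosome 9, 111054486 to 111057519, minus strand). In macrophages it stood at 15.4, 17.6 and 14.3 CPM with PBS and at 25.3, 28.9 and 29.5 CPM with CGRP. The macrophage groups did not overlap. Ccrl2 rose 1.75-fold in macrophages (log2 0.81, SE 0.20, adjusted p = 0.024). This call rests on 39 to 79 counts per library, and although it held under all 9 other settings it was lost in 4 of 6 fits without 1 library, without PBS library 1 or 3 or CGRP library 2 or 3 (adjusted p up to 0.114). In neutrophils it stood at 9.97, 9.89 and 7.48 CPM with PBS and at 14.97, 11.2 and 9.65 CPM with CGRP, groups that overlapped, and the log2 difference of 0.38 did not pass (adjusted p = 0.58).

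Ccr1 encodes a receptor for CCL3, CCL5, CCL6 and CCL9 on myeloid cells (ENSMUSG00000025804, chromosome 9, 123962124 to 123968692, minus strand). Its annotated end lies 133257 bases before the start of Ccr2. In neutrophils it stood at 154, 165 and 120 CPM with PBS and at 234, 263 and 155 CPM with CGRP. The third CGRP library fell within the PBS range, so the groups overlapped. Ccr1 rose 1.47-fold in neutrophils (log2 0.56, SE 0.15, adjusted p = 0.046), close to the threshold. It passed in 7 of 9 other settings but not in DESeq2 (adjusted p = 0.48) nor in a fit over all 12 libraries (adjusted p = 0.16). Of the 6 fits without 1 library, the one without CGRP library 3 kept the call (log2 0.77, adjusted p = 1.97e-04) and the other 5 lost it, with log2 0.40 to 0.65 and adjusted p from 0.055 to 0.28. In macrophages Ccr1 stood at 63.2, 67.9 and 54.5 CPM with PBS and at 89.5, 72.4 and 55.4 CPM with CGRP, which overlapped (log2 0.22, adjusted p = 0.54). The 2 effects were not shown to differ (log2 difference -0.31, 95% interval -0.86 to 0.23, adjusted p = 0.69).

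CXCR2 is the main receptor for CXCL1 and CXCL2 on neutrophils, and its gene (ENSMUSG00000026180, chromosome 1, 74153989 to 74161246, plus strand) stood at 578, 609 and 503 CPM in PBS neutrophils and 746, 633 and 544 CPM in CGRP neutrophils. The groups overlapped and the log2 difference of 0.18 did not pass (95% interval -0.03 to 0.39, adjusted p = 0.49). In macrophages Cxcr2 had 2 or 3 counts in each PBS library and 2 to 7 in each CGRP library, at or near the floor, and was not tested there. In the last 500 bases of its transcripts 32.6% of 31-base words also occur in other genes, of which the one sharing most, A230085B16Rik, had 0 counts in every library.

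C5ar1 encodes the receptor for the complement fragment C5a (ENSMUSG00000049130, chromosome 7, 16246743 to 16259540, minus strand). It stood at 812, 891 and 841 CPM in PBS neutrophils and 929, 856 and 976 CPM in CGRP neutrophils. In macrophages it stood at 702, 520 and 761 CPM with PBS and 653, 809 and 942 CPM with CGRP. The groups overlapped in both cell types. The log2 difference was 0.12 in neutrophils (95% interval -0.05 to 0.28, adjusted p = 0.60) and 0.28 in macrophages (-0.07 to 0.62, adjusted p = 0.38).

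Fpr1 and Fpr2 encode formyl peptide receptors, of which FPR2 also binds lipid and protein ligands of inflammation. The genes are neighbours on chromosome 17, at 17876471 to 17883940 on the minus strand for Fpr1 (ENSMUSG00000045551) and 17887824 to 17893952 on the plus strand for Fpr2 (ENSMUSG00000052270), 3883 bases apart. In neutrophils Fpr1 stood at 293, 312 and 302 CPM with PBS and at 338, 310 and 323 CPM with CGRP. Fpr2 stood at 173, 195 and 199 CPM with PBS and at 198, 175 and 163 CPM with CGRP. Both pairs of groups overlapped, and neither log2 difference passed, with 0.10 for Fpr1 (95% interval -0.07 to 0.27, adjusted p = 0.68) and -0.08 for Fpr2 (-0.28 to 0.12, adjusted p = 0.82). In macrophages Fpr1 had 6 to 22 counts in a library and did not pass (log2 0.43, 95% interval -0.53 to 1.40, adjusted p = 0.66), and Fpr2 had 3 to 11 counts and was not tested. Of the 31-base words of the Fpr2 transcripts 48.3% also occur in other genes, chiefly Gm5966, and 5.96% in their last 500 bases. No counts of Gm5966 are given here. A different gene, Fpr3, which overlaps Fpr2 on the same strand, had 0 counts in every library.

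Levels were then compared between the cell types on a common scale (TMM over the 12 libraries). Between PBS macrophages and PBS neutrophils 8 of the 9 receptor genes passed, 7 lower and 1 higher in macrophages, in a comparison in which 67.9% of all genes passed, 32.5% higher and 35.4% lower in macrophages. Of the 7, Cxcr2 and Fpr2 did not pass the count filter in macrophages alone. They entered this fit through their neutrophil counts, so the filter fixed the direction of their calls, from which no conclusion is drawn. Cell type cannot be told apart here from the 3-day culture, the medium and M-CSF. Cxcr2 summed to 5298 counts in the PBS neutrophils and 8 in the PBS macrophages. With 2 or 3 counts in each PBS macrophage library, at or below the floor, its ratio is given only as a lower bound, 349.5 (lower end of the 95% counting interval). Fpr1 summed to 2826 against 40 counts, a ratio of 73.5 (95% counting interval 53.9 to 103), and Fpr2 to 1765 against 21 counts, a ratio of 87.5 (57.0 to 142). The PBS macrophages held 0.144% of the neutrophil level of Cxcr2, a value at the floor, 1.35% of Fpr1 and 1.14% of Fpr2, beside 0.0438 to 11.9% (median 0.134%) for the 10 neutrophil markers. The part of residual neutrophil RNA in these low macrophage values was not tested.

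The other receptor genes differed less between the cell types. Ccr1 was lower in PBS macrophages with a log2 difference of -1.28 (adjusted p = 2.32e-06), and Cxcr4 with one of -2.27 (adjusted p = 1.19e-07). Cx3cr1 was lower with a log2 difference of -0.49 (adjusted p = 0.0021), and C5ar1 with one of -0.42 (adjusted p = 0.0071), the latter call lost without PBS macrophage library 2 (log2 -0.26, adjusted p = 0.068). Ccrl2 was the one higher in macrophages (log2 0.74, adjusted p = 0.0082), and for Ccr2 the log2 difference of -0.16 did not pass (95% interval -0.36 to 0.05, adjusted p = 0.16). On this scale the 4 groups of Ccr2 followed each other without overlap, from PBS neutrophils at 317 CPM to PBS macrophages at 284, CGRP neutrophils at 223 and CGRP macrophages at 162. Cx3cr1 ran from PBS neutrophils at 89.5 CPM through CGRP neutrophils at 67.8 and PBS macrophages at 64.1, which overlapped each other, to CGRP macrophages at 24.5. Cxcr4 was at 61.6 CPM in CGRP and 49.4 in PBS neutrophils, which overlapped, then without overlap at 28.6 in CGRP and 9.95 in PBS macrophages. Ccrl2 was at 27.5 CPM in CGRP macrophages, without overlap above PBS macrophages at 15.5, which overlapped CGRP neutrophils at 12.02, and these in turn overlapped PBS neutrophils at 9.27. Ccr1 was above the macrophages in both neutrophil groups, with overlap only inside each cell type, as were Cxcr2, Fpr1 and Fpr2, while for C5ar1 all neighbouring groups overlapped.

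**Figure D3:**
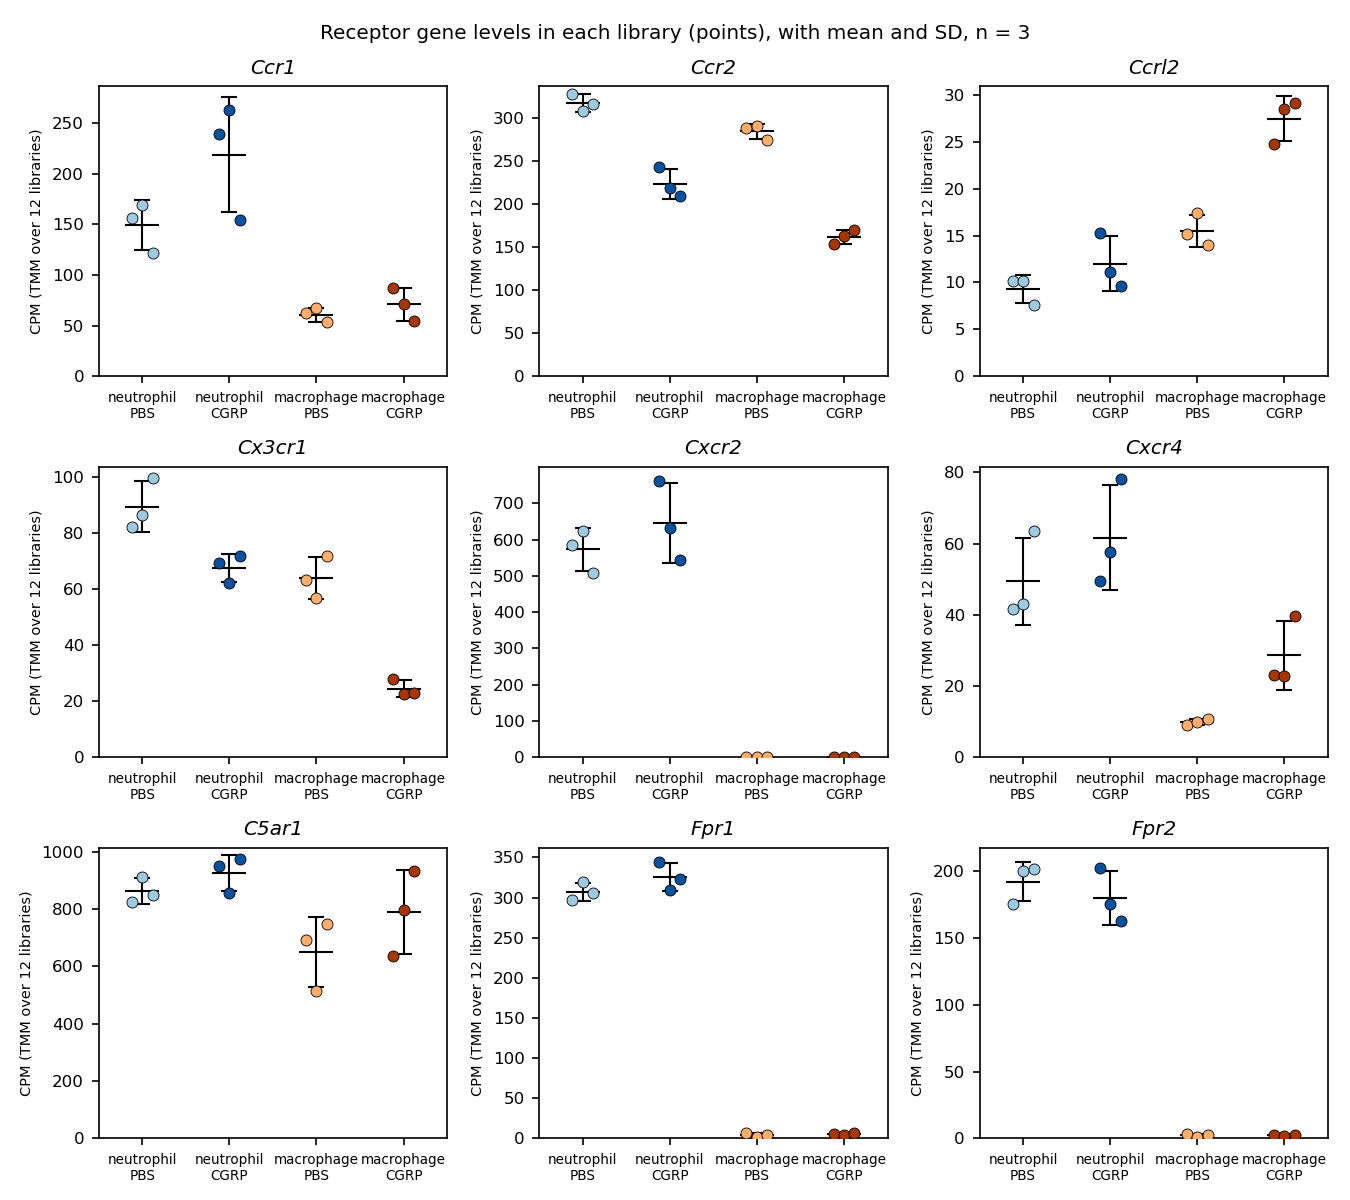
Each panel gives the level of 1 receptor gene in CPM (y axis, from 0, TMM over 12 libraries) in the 4 groups on the x axis, with points for libraries and bars for the mean and SD (n = 3). Cxcr2, Fpr1 and Fpr2 lie near 0 in both macrophage groups, Ccr2 steps down with CGRP in both cell types, and Cxcr4 and Ccrl2 rise with CGRP in macrophages.

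As a description, the 2 genes with the most similar pattern to each receptor gene were found by Pearson's r of log2 CPM over the 12 libraries, among 10694 genes. These libraries share groups and cell types, so a large difference between cell types alone gives a high r. For Cxcr2 they were Ltf, a neutrophil granule protein gene, and Gm17619 (r = 0.998 each). Fpr1 had Fpr2 (r = 0.999) and Rhof (r = 0.998), and Fpr2 had Pglyrp1, a peptidoglycan-binding protein of neutrophil granules, and Fpr1 (r = 0.999 each). For Cxcr4 they were Ypel3 and Birc3 (r = 0.982 each), for Ccr1 A130071D04Rik (0.979) and Avl9 (0.972), and for Ccrl2 Atp1b3 (0.966) and Rps4x (0.960). For Cx3cr1 they were Chaf1b (0.962) and Plekha2 (0.958), for C5ar1 Tpst2 (0.958) and Slc25a44 (0.957), and for Ccr2 Zranb2 (0.949) and Sdad1 (0.945).

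The other genes of the system were read from lists by role, beginning with the ligands. Of 22 genes for ligands of these receptors, 13 were tested in macrophages, and 3 rose and 5 fell with CGRP. Both ligand genes of CCR2 that were tested fell, while Ccl8 and Ccl12 had at most 2 counts in a macrophage library. Ccl2 stood at 44.5, 57.3 and 49.3 CPM with PBS and at 11.9, 14.2 and 9.65 CPM with CGRP (log2 -2.05, adjusted p = 2.04e-05). Ccl7 stood at 25.3, 24.2 and 23.8 CPM with PBS and at 4.17, 4.87 and 9.65 CPM with CGRP (log2 -2.12, adjusted p = 2.54e-04). The macrophage groups of neither gene overlapped, so both the receptor and these ligands were lower in the same libraries.

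Other CC chemokine genes moved in both directions in macrophages. Ccl3 fell by 1.58 (adjusted p = 5.12e-04) and Ccl4 by 1.87 (adjusted p = 2.30e-05). Ccl9, a ligand of CCR1 in mice, stood at 1201, 1384 and 978 CPM with PBS and at 2231, 1938 and 1831 CPM with CGRP (log2 0.76, adjusted p = 0.0026), and Ccl6, another, rose by 0.70 (adjusted p = 0.0067). Ccl5 rose by 0.60 (adjusted p = 0.047), a call held in 5 of 9 other settings and in 1 of 6 fits without 1 library. Anxa1, whose protein annexin A1 binds formyl peptide receptors and limits neutrophil influx, fell by 0.78 (adjusted p = 0.0054). The calls of Ccl6 without PBS library 1 (adjusted p = 0.073) and of Anxa1 without CGRP library 2 (adjusted p = 0.054) were lost. The median log2 fold change of the 13 ligand genes was 0.23, beside 0.0047 over all genes.

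In neutrophils 18 ligand genes were tested, and 1 rose and 1 fell. Ccl9 stood at 228, 242 and 222 CPM with PBS and at 326, 286 and 326 CPM with CGRP, without overlap (log2 0.43, adjusted p = 0.0052), a call lost in 1 fit over the 12 libraries (adjusted p = 0.146). Anxa1 stood at 4749, 5265 and 4250 CPM with PBS and at 4143, 3175 and 3786 CPM with CGRP (log2 -0.36, adjusted p = 0.049), a call that held in 4 of 9 other settings and 2 of 6 fits without 1 library and was lost with edgeR and DESeq2. The median over the 18 was 0.01, beside 0.0008 over all genes. The effect of CGRP differed between macrophages and neutrophils for 5 of 18 ligand genes tested, with differences of -2.10 for Ccl2 (adjusted p = 2.94e-05), -1.60 for Ccl3 (adjusted p = 0.0077), -2.02 for Ccl4 (adjusted p = 9.39e-05), -2.05 for Ccl7 (adjusted p = 5.74e-04) and 0.80 for Ccl6 (adjusted p = 0.033). The first 4 of these held under all 8 other settings and all 12 fits without 1 library, and Ccl6 under 7 of 8 and 4 of 12.

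**Figure D4:**
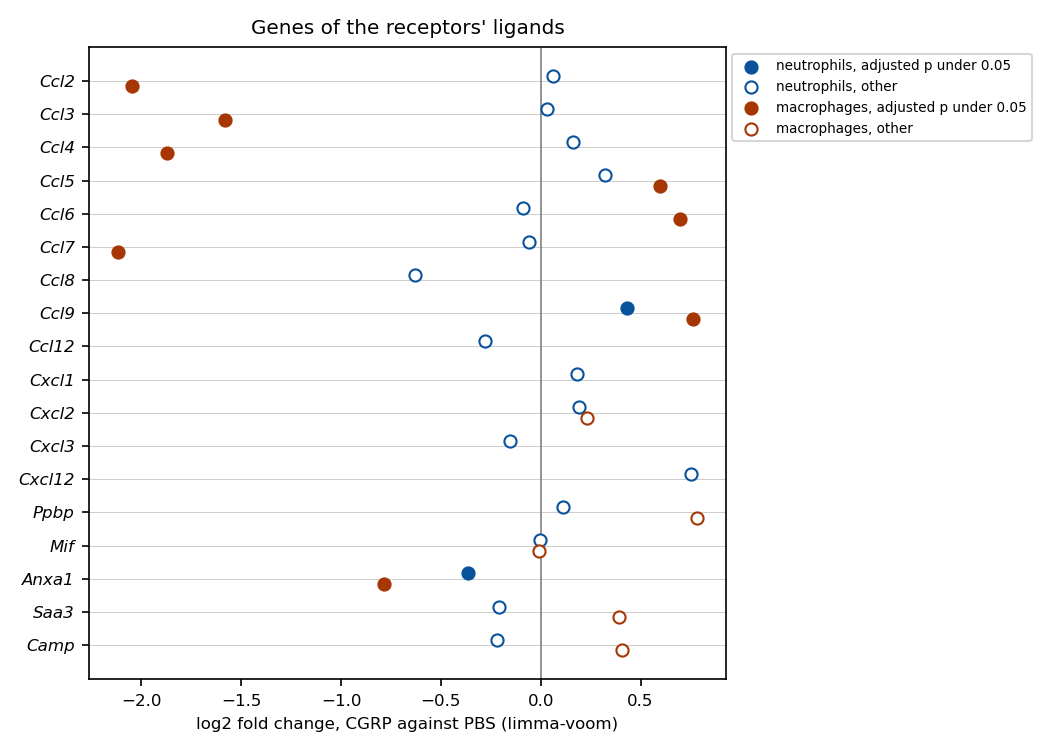
The log2 fold change with CGRP against PBS (x axis, limma-voom) is plotted for each ligand gene tested in neutrophils (blue) or macrophages (brown), with filled points for an adjusted p under 0.05. Ccl2, Ccl3, Ccl4 and Ccl7 lie between -2.12 and -1.58 in macrophages and close to 0 in neutrophils, and Ccl9 lies right of 0 in both.

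Of 18 other chemokine receptor genes, 3 were tested in each cell type and none passed with limma-voom, edgeR or DESeq2. At an unadjusted p under 0.05 each of the 3 tools gave 0 in neutrophils and 3 in macrophages. Over all genes limma-voom gave 1257 of 9819 in neutrophils and 1860 of 9393 in macrophages. Of 16 other chemoattractant receptor genes 7 were tested in each cell type. Gpr35, a receptor for tryptophan metabolites, stood at 12.5, 8.18 and 10.2 CPM in PBS macrophages and at 31.8, 33.0 and 38.6 CPM in CGRP macrophages, without overlap (log2 1.73, adjusted p = 1.30e-04). In neutrophils Gpr35 stood at 10.6, 8.69 and 10.7 CPM with PBS and 17.8, 17.3 and 18.0 CPM with CGRP (log2 0.83, adjusted p = 0.040), a call held in 6 of 9 other settings and in 0 of 6 fits without 1 library. Gpr84, a receptor for medium-chain fatty acids, fell in neutrophils from 40.5, 42.9 and 35.6 CPM to 20.7, 25.5 and 24.6 CPM (log2 -0.75, adjusted p = 0.0078), a call lost without PBS library 2 (adjusted p = 0.056). Ptafr, the receptor for platelet-activating factor, fell in macrophages by 0.72 (adjusted p = 0.028), a call that held in 3 of 6 fits without 1 library and was lost without CGRP library 1 or PBS library 1 or 3 (adjusted p up to 0.084). The list medians were -0.08 in neutrophils and -0.09 in macrophages.

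Of 33 genes for G proteins, kinases, arrestins and regulators that act below these receptors, 31 were tested in each cell type. None passed in neutrophils with limma-voom, edgeR or DESeq2. At an unadjusted p under 0.05 these tools gave 4, 5 and 2 of the 31, beside 1257 of all 9819 genes with limma-voom. In macrophages Rgs2, which speeds the switching off of G proteins, stood at 269, 304 and 224 CPM with PBS and at 534, 482 and 415 CPM with CGRP (log2 0.85, adjusted p = 0.0014). The macrophage effect on Rgs2 exceeded that in neutrophils by 0.77 (adjusted p = 0.011), a call lost without CGRP neutrophil library 3 (adjusted p = 0.055). Rgs18, another regulator of this family, fell by 1.10 in macrophages (adjusted p = 0.012), lost without CGRP library 2 (adjusted p = 0.105). The list medians were -0.12 in neutrophils and 0.06 in macrophages.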

How the data were processed

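Poly(A)-primed, UMI-tagged RNA-seq libraries of neutrophils and monocytes/macrophages were analysed. The authors ran nf-core/RNAseq with its UMI option, STAR on GRCm38 and featureCounts, and deposited raw counts per gene, 1 table for each cell type. The annotation release and the strand setting are not given in the sources used here. Counts were filtered with filterByExpr (edgeR 4.0.16, minimum count 10, minimum total 15), scaled by TMM and tested with limma-voom (limma 3.58.1, two-sided, Benjamini-Hochberg, threshold 0.05) within each cell type and over all 12 libraries for the difference between cell types. TMM, limma-voom and the threshold are those of the study, and the filter and the separate fits were chosen here. edgeR's quasi-likelihood test, DESeq2 1.42.0 and other scalings, filters and weights were alternatives, and each library was left out in turn.

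The receptor genes, gene lists and tests were chosen with earlier results of these data known. Genes named are the 9 receptors, members of the receptor, ligand and signalling lists that passed, the 2 genes most like each receptor over the 12 libraries, and for each marker list the gene with the most counts and those at 0. Other genes, such as those sharing sequence or position with a receptor gene, were named after their values were seen. Gene positions are from GENCODE, in which 52403 of the 52636 identifiers were found, and start regions from RefSeq (GRCm38.p6). Some genes of these lists, and sums that hold them, are not reported here. No 2 libraries held identical values. Counts were also simulated with the same fixed spread for every gene and changes only in genes above a minimum mean count. A log2 change of 1 was recovered for 75.2% of changed genes in neutrophils (9854 genes), 76.5% in macrophages (9389 genes) and 16% for the difference between cell types (10745 genes). Unchanged genes called numbered 6, 15 and 8. The spread of real genes varies, so these rates are not the power for the genes named here, least of all those with few counts.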

Additional observations from a re-analysis of the deposited data

Results flagged for a closer look

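Cx3cr1 responded to CGRP differently in the 2 cell types by a test of the difference itself. The log2 fold change in macrophages minus that in neutrophils was -0.957 (SE 0.210, adjusted p = 0.011, limma-voom over 12 libraries), with -1.36 in macrophages and -0.39 in neutrophils, and all 3 CGRP libraries lay below all 3 PBS libraries in each cell type. The call was lost without the second CGRP macrophage library (limma-voom, adjusted p = 0.060). Cell type cannot be told apart from the culture, the medium and M-CSF.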

How the results depend on the processing

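Of 593 values of single receptor genes under another setting or without 1 library, 572 kept their direction and side of the threshold, 13 no longer passed and 4 newly passed. The 4 changes of direction were for genes with few macrophage counts, Fpr1 in macrophages without PBS library 2 (-0.095, range without 1 library up to 0.853), Fpr1 between cell types with sample weights (-0.0515) or without PBS macrophage library 2 (-0.177, range up to 0.727), and Fpr2 between cell types without that library (-0.141, range up to 0.711), and their cause was not tested. Of all genes, 1 fit over the 12 libraries called 137 in neutrophils and 1050 in macrophages, in place of 248 and 698, and sample weights called 1406 in macrophages and 520 between cell types, in place of 698 and 252. Without TMM 150 rose and 64 fell in neutrophils (70.1% higher, against 59.7% with TMM), and 88 and 154 differed between cell types (36.4% against 51.2%). Without 1 library the calls ranged from 138 to 234 in neutrophils (138 without PBS library 1 or 2, 153 without CGRP library 2), 347 to 765 in macrophages (347 without PBS library 1, 348 without CGRP library 2, 439 without CGRP library 3) and 149 to 328 between cell types (149 without PBS macrophage library 1).

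Of the receptor genes, 1 passed in neutrophils in DESeq2 and in the fit over 12 libraries, Ccr2, and 1 to 2 without 1 library. Between cell types 2 responded differently in DESeq2, edgeR, with sample weights and with the replicate block, Cx3cr1 and Cxcr4, and 0 to 1 without 1 library. With at least 10 counts in every library 5 differed between PBS macrophages and PBS neutrophils, since Cxcr2, Fpr1 and Fpr2 were then not tested. Same-numbered libraries did not deviate together throughout. Their correlations over genes ran from -0.179 to 0.273, beside -0.402 to 0.386 for libraries of different number. Those numbered 3 had positive correlations in both cell types (0.137 in neutrophils, 0.273 in macrophages), and whether they shared a source was not tested. The labels do not pair the libraries, and the main fits took no pairing. A replicate block called 254 genes in neutrophils, 905 in macrophages and 288 between cell types. In macrophages Cxcr2 and Fpr2, with at most 7 and 11 counts in a library, fell under the count filter and were not tested. The interval of Fpr1 there was -0.53 to 1.40.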

Other observations

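Markers of other marrow cells were present in the neutrophil libraries. The 4 eosinophil markers summed to 589 ± 33.7 CPM with PBS and 585 ± 55.1 CPM with CGRP (SD, n = 3), led by Prg2, an eosinophil granule protein gene, and the 4 basophil and mast cell markers to 460 ± 51.7 and 421 ± 29.5 CPM, led by Mcpt8, a basophil protease gene. The 4 erythroid markers summed to 4625 ± 578 and 4533 ± 475 CPM, led by the globin gene Hbb-bs, and the 4 platelet markers to 149 ± 1.17 and 151 ± 31.5 CPM, led by Pf4, with Gp1ba at 0 in every library. The 4 NK cell markers summed to 107 ± 7.87 and 92.9 ± 14.4 CPM, led by Nkg7, the 4 dendritic cell markers to 21.03 ± 4.36 and 22.1 ± 4.85 CPM, led by Cd209a, and the 5 T cell markers to 20.2 ± 2.21 and 16.1 ± 3.14 CPM, led by Cd3d. The 10 neutrophil markers themselves summed to 190239 ± 35388 and 170401 ± 20814 CPM. No tested gene of these lists passed in neutrophils with limma-voom, edgeR or DESeq2. With each tool 2 NK cell and 3 neutrophil markers had an unadjusted p under 0.05, beside 1257 of all 9819 genes with limma-voom.

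In macrophage libraries most of these lists were near the floor. The B cell markers Cd79a and Ms4a1, the T cell markers Cd3e and Cd3g, the NK cell marker Ncr1, the eosinophil markers Epx and Il5ra and the platelet marker Gp1ba were at 0 counts in every macrophage library. Pf4, which macrophages also express, stood at 770 CPM with PBS and 798 CPM with CGRP, Cd79b at 32.4 and 38.8, Hbb-bs at 11.82 and 12.02, Mcpt8 at 4.67 and 4.38, Prg2 at 2.99 and 5.22, Cd209a at 2.38 and 5.39 and Klrd1 at 0.598 and 2.76. Cd4 rose from 2.20 to 6.43 CPM (log2 1.68, adjusted p = 0.039), on 3 to 20 counts in a library, and this call held in 6 of 8 other settings and in 1 of 6 fits without 1 library. Of the neutrophil and the monocyte and macrophage markers, none passed for CGRP in macrophages with limma-voom, edgeR or DESeq2. At an unadjusted p under 0.05 these tools gave 2, 2 and 1 of the former and 3, 2 and 2 of the latter. Over all 9393 genes tested, limma-voom gave 1860. Both lists nevertheless had most members at a higher fitted level with CGRP. These were 8 of 8 tested neutrophil markers (median log2 0.38) and 9 of 10 monocyte and macrophage markers (median 0.33), beside 4764 of all 9393 genes.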
